A study of Rattus norvegicus with 12 samples.

Results

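Aminoacyl-tRNA synthetases are the enzymes that join each amino acid to its transfer RNA (tRNA). The 35 rat genes described here, 19 for cytosolic enzymes and 16 for mitochondrial enzymes, were chosen by name as members of this family. No cut on their measured values was used, but earlier results of these data were known when they were chosen. All 19 cytosolic genes and 11 of the 16 mitochondrial genes had a named probe on the array. All 30 lay above the filter on dim genes and so belonged to the 8698 genes tested of 14497 with a named probe. Cars2, Ears2, Iars2, Mars2 and Wars2 had no named probe and were not analysed here. Each gene was read by its brightest probe, and only Hars1 had 2, of mean level 11.2 and 5.91 log2, which gave changes of the same sign in all 5 comparisons.

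The livers were those of Sprague Dawley fetuses taken at day 19 of gestation, with term at day 21. In the fasted groups the dams had no food for 48 hr from day 17, which the study used as a model of restricted fetal growth, and in the fed groups the dams ate freely. Polysome RNA and total liver RNA of each diet were hybridised to Affymetrix Rat Gene 1.0 ST arrays, which gave 4 groups of 3 arrays: fasted polysome, fasted total, fed polysome and fed total. Replicates are labelled as biological, with 3 dams per diet, and the labels do not say whether the fetuses of a dam were pooled. Polysome RNA, taken from sucrose gradient fractions with ribosome-bearing messages, was extracted with acid phenol and chloroform from pooled preparations, whereas total RNA came from guanidine thiocyanate homogenates spun through caesium chloride, so that ribosome loading and extraction method cannot be told apart in a comparison of the fractions.

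Cytosolic synthetases charge the tRNAs that ribosomes of the cytoplasm and the endoplasmic reticulum use, and in liver they serve the synthesis of serum proteins. Several of them, with the scaffold proteins Aimp1, Aimp2 and Eef1e1, sit in a multi-synthetase complex, while the others work outside it. A separate set of nuclear genes encodes enzymes that are imported into mitochondria, where they charge the tRNAs used to make subunits of the respiratory chain; the Gars1 and Kars1 genes provide enzymes for both compartments. When an amino acid runs short, uncharged tRNA activates the kinase Gcn2 (Eif2ak4), translation of the transcription factor ATF4 increases, and ATF4 raises transcription of genes that carry an amino acid response element, among them many cytosolic synthetases.

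The promoter sequences are shown first because the classes differ there in a site through which amino acid shortage is known to act. In the RefSeq promoter windows of build GRCr8, from 250 bases before to 50 bases after an annotated start, 17 cytosolic and 16 mitochondrial genes had a window. The core of the amino acid response element, TGATGNAA on either strand, was found in 7 of the 17 cytosolic windows (41.2%), in 0 of the 16 mitochondrial genes, and in 4.16% of all 27457 genes with a window. The stretches with the core in capitals and 8 bases on each side, fewer where the window ended, are given on the gene's strand, 5′ to 3′, with the core read there directly or as its reverse complement.
Aars1, chr19:55908362-55908385, plus strand: cttgagcaTTGCATCAgccgagcc
Cars1, chr1:208225337-208225360, minus strand: cgccgcggTTGCATCAgattctgg
Iars1, chr17:15193661-15193684, minus strand: tgtcagtaTTGCATCAcctccaga
Mars1, chr7:65023755-65023778, minus strand: cgttccggTTGCATCAgcgtgggc
Nars1, chr18:60275781-60275804, minus strand: aggtgatcTGATGCAAcgcttcag
Tars1, chr2:62114814-62114837, minus strand: gcgtcccgTTGCATCAgctggtta
Yars1, chr5:146820193-146820212, plus strand: agctcagcTGATGCAAcctg
In these 7 stretches the variable base of the core was the same, so that all read TGATGCAA or its reverse complement TTGCATCA. The core began 112 bases before the start in Aars1, 24 in Iars1, 17 in Mars1, 14 in Nars1 and 27 in Tars1, and at position 18 after the start in Cars1 and 39 in Yars1. Aars1 had a second match, not printed here, at position 10 after the start and with another variable base. On the gene's strand alone the core was found in 2 of the 17 cytosolic windows, those of Nars1 and Yars1.

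The E-box CACGTG, a palindrome bound by Myc-family and related factors, was in 5 of the 17 cytosolic windows (29.4%; Aars1, Farsb, Iars1, Tars1 and Vars1), in 1 of the 16 mitochondrial genes (6.25%; Ears2) and in 7.08% of all genes. GCGCNTGC on either strand, the letters of the motif of NRF1, a factor known for its targets among genes of mitochondrial function, was in 4 cytosolic genes (23.5%), 4 mitochondrial genes (25%) and 10.3% of all genes. These matches are letters in a window and do not show that a factor was bound. Of the other genes of the amino acid response, 4 of 21 had the core: Chac1, Fgf21, Nupr1 and Trib3. In Chac1, Fgf21 and Nupr1 the variable base was that of the 7 stretches printed above. The Trib3 site, at chr3:161275539-161275562 on the minus strand, had another variable base than these stretches.
Trib3: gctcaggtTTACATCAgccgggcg

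Hars1 and Hars2, the cytosolic and the mitochondrial histidyl-tRNA synthetase, lie head to head, so that 1 stretch of DNA separates the starts of an enzyme of each class. On build GRCr8 the 97 bases between their outermost annotated starts, chr18:28672713-28672809, read as follows on the plus strand, the strand of Hars2, and held none of the 3 motifs.
Hars1-Hars2: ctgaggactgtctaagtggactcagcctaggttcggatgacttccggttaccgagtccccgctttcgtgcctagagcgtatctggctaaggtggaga
Neither gene passed the test in any of the 5 comparisons. With fasting, the change in total RNA was −0.03 ± 0.087 log2 (SE) for Hars1 and −0.06 ± 0.090 for Hars2. The polysome minus total difference in fed dams was 0.15 ± 0.087 for Hars1 and −0.16 ± 0.090 for Hars2.

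The liver label held by its markers: all 8 hepatocyte genes fixed for the check, such as Alb and Afp, were above the filter, with summed intensities of 80400 to 96300 on the 12 arrays. Erythroid genes, which mark the red cell precursors that a fetal liver also holds, summed to 37700 to 39800. Arrays of 1 group correlated at 0.9914 to 0.9961 over all probes, and array medians ran from 101.3 to 108.3, so that every change below is relative to the other transcripts of an array. Of the exocrine pancreas markers, 3 of 11 measured were above the filter, and their sum was 986 to 1000 on the fasted total arrays and 1090 to 4160 on the fed total arrays, highest on fed total 1. Markers of some other cell types moved with the diet. Endothelial markers (5 of 6 measured) summed to 5210 to 5340 on fasted total and 4440 to 4780 on fed total arrays, and to 3170 to 3530 on fasted polysome and 2950 to 3130 on fed polysome arrays. Macrophage markers (7 of 7) summed to 4800 to 5560 on fasted total and 4460 to 4600 on fed total arrays, and to 3730 to 3850 on fasted polysome and 3150 to 3710 on fed polysome arrays. Megakaryocyte markers (2 of 4) summed to 1750 to 2100 on fasted polysome and 2450 to 2660 on fed polysome arrays. On total arrays they overlapped, at 1750 to 2440 in fasted and 1830 to 2460 in fed dams. Neutrophil markers (7 of 7) overlapped between the diets in both fractions. They summed to 9440 to 11200 on fasted polysome and 9320 to 11200 on fed polysome arrays, and to 10700 to 12200 on fasted total and 11100 to 14400 on fed total arrays. The part of these cells in the fasting values below was not tested. Fewer cells of a type and less RNA per cell cannot be told apart in whole liver.

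In total RNA, none of the 30 synthetases passed the test with maternal fasting (limma, Benjamini-Hochberg over 8698 genes, threshold 0.05). Over all genes 141 passed, 1.62%. At an unadjusted p under 0.05 there were 4 of 30 synthetases, the cytosolic Qars1 and Farsb and the mitochondrial Rars2 and Yars2, beside 17.5% of all genes. The median change was −0.02 log2 for the 19 cytosolic and −0.06 for the 11 mitochondrial enzymes, against 0.0011 over all genes; 8 cytosolic and 3 mitochondrial genes lay above 0. The 95% intervals of the 19 cytosolic changes all lay between −0.36 and 0.39 log2, and those of the 11 mitochondrial changes between −0.69 and 0.37. Without fed total 1, the array with most pancreas signal, the count in total RNA was again 0 of 30.

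Qars1, glutaminyl-tRNA synthetase of the complex, had the smallest p of the cytosolic genes. It read 11.33, 11.31 and 11.36 log2 on the fasted total arrays, against 11.03, 11.07 and 11.21 on the fed total arrays. All 3 fasted arrays were above all 3 fed ones, and the change of 0.23 ± 0.077 log2 (SE, n = 3 each) had a limma adjusted p of 0.152. Farsb, the beta subunit of phenylalanyl-tRNA synthetase, read 10.816, 10.814 and 10.718 on fasted total arrays, against 10.894, 10.965 and 10.997 on fed total arrays. These groups did not overlap either; the change of −0.17 ± 0.067 had a limma adjusted p of 0.213.

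Among the mitochondrial enzymes the smallest p in total RNA belonged to Rars2, the arginyl-tRNA synthetase, and Yars2, the tyrosyl-tRNA synthetase. Rars2 read 8.39, 8.48 and 8.53 log2 on fasted total arrays, against 8.67, 8.92 and 8.57 on fed total arrays. All 3 fasted values were below the fed ones, with a change of −0.25 ± 0.10 (SE, n = 3 each; limma adjusted p = 0.225). Yars2 read 8.99, 8.68 and 8.80 on fasted total arrays, against 9.08, 9.26 and 9.21 on fed total arrays. Here too the fasted arrays were the lower 3, and the change of −0.36 ± 0.15 had a limma adjusted p of 0.25, with an interval from −0.69 to −0.03.

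In polysome RNA, 0 of 30 synthetases passed the test with fasting, beside 3.66% of all genes (318 genes). At an unadjusted p under 0.05 there were 4 cytosolic genes, Sars1, Vars1, Qars1 and Aars1, and no mitochondrial gene, beside 22.9% of all genes. The median change was −0.06 log2 for cytosolic and −0.09 for mitochondrial enzymes, against 0.02 over all genes; 7 of 19 and 2 of 11 lay above 0. All 30 intervals lay between −0.50 and 0.49 log2. Without fed polysome 1, Qars1 (adjusted p = 0.0457) and Tars1 (adjusted p = 0.049) passed in the limma fit, beside 8.08% of all genes, and no other omission of 1 array gave a call among the 30.

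Sars1, the seryl-tRNA synthetase, had the highest change on polysomes. It read 11.39, 11.51 and 11.22 log2 on fasted polysome arrays, against 10.96, 11.11 and 11.23 on fed polysome arrays. The highest fed array lay above the lowest fasted one, and the change was 0.27 ± 0.10 (SE, n = 3 each; limma adjusted p = 0.143). Vars1, the valyl-tRNA synthetase, read 10.93, 11.11 and 10.94 on fasted polysome arrays, against 11.08, 11.36 and 11.34 on fed polysome arrays. The lowest fed array lay within the fasted values, and the change was −0.27 ± 0.10 (limma adjusted p = 0.143).

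Of the mitochondrial enzymes, Aars2 and Vars2, which charge alanine and valine tRNAs, had the smallest p on polysomes. Aars2 read 8.03, 8.02 and 8.12 log2 on fasted polysome arrays, against 8.02, 8.31 and 8.43 on fed polysome arrays. Vars2 read 8.20, 8.35 and 8.19 on fasted polysome arrays, against 8.15, 8.47 and 8.76 on fed polysome arrays. In both genes the lowest fed value, that of fed polysome 1, lay below all 3 fasted values. The changes were −0.20 ± 0.10 for Aars2 and −0.21 ± 0.13 for Vars2 (limma adjusted p = 0.279 and 0.359).

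**Figure D1:**
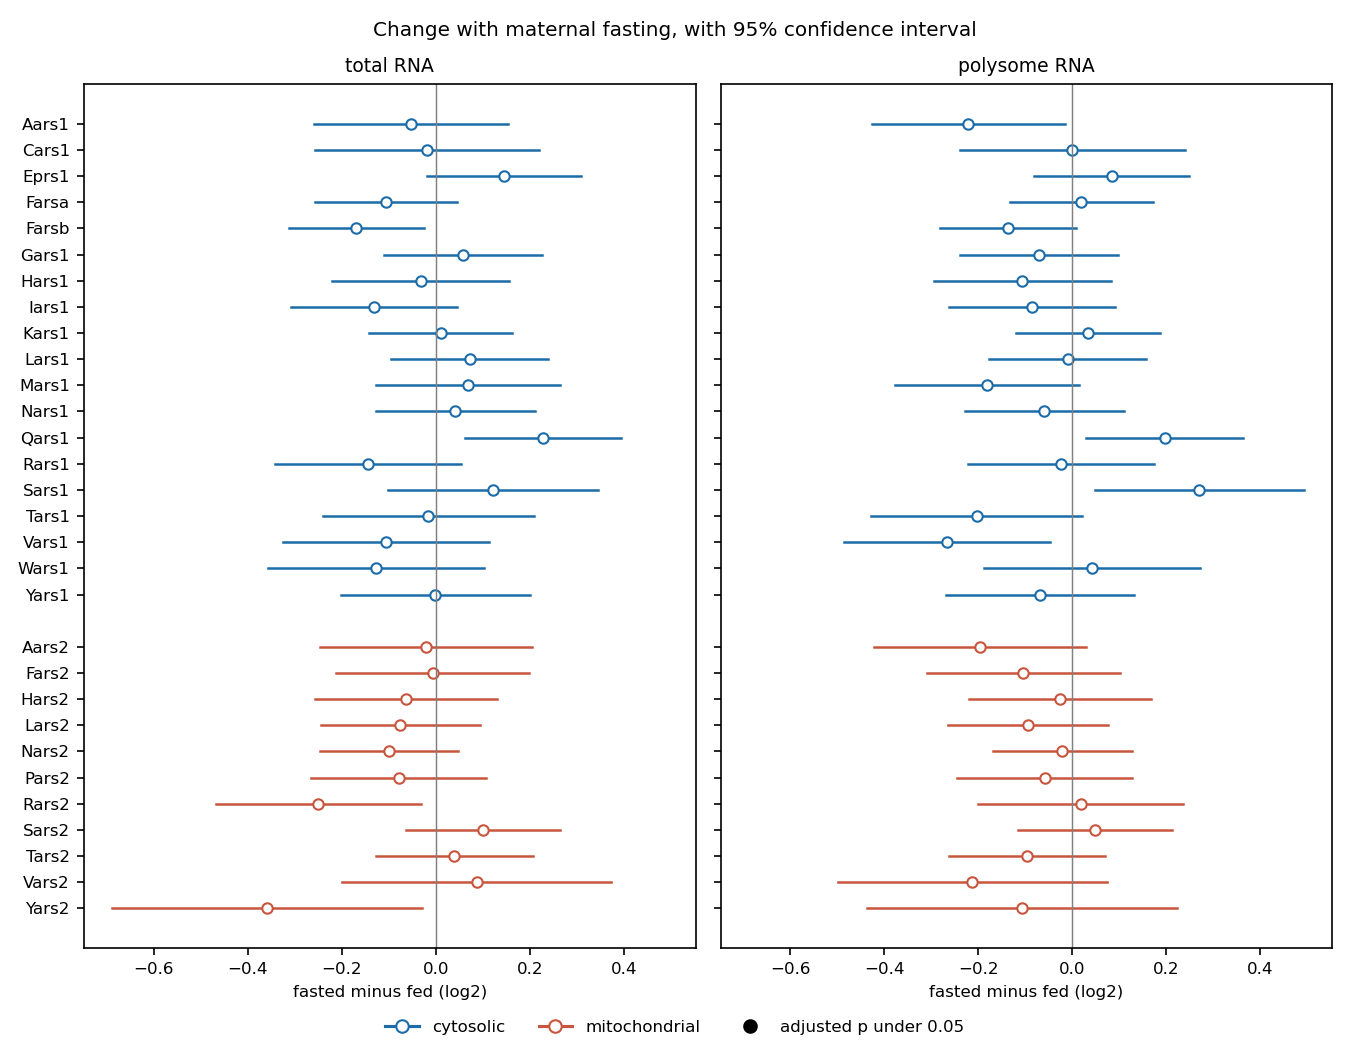
Change of each of the 30 synthetases with maternal fasting, fasted minus fed in log2, in total RNA (left) and polysome RNA (right). Points are fitted changes from 3 arrays per group, lines are 95% confidence intervals, and a filled point would mark an adjusted p under 0.05; no point is filled, and the changes run from −0.36 to 0.23 in total and from −0.27 to 0.27 in polysome RNA.

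The difference between the fasting effects, polysome minus total, asks whether fasting changed a transcript's loading on polysomes apart from its amount. It was called for 0 of 30 synthetases and for 0% of all genes; at an unadjusted p under 0.05 there were 0 synthetases, beside 5.75% of all genes (500 genes). The median was −0.06 log2 for cytosolic, −0.02 for mitochondrial and 0.02 for all genes. The smallest p among cytosolic enzymes belonged to Mars1, the methionyl-tRNA synthetase (−0.25 ± 0.13, limma adjusted p = 0.799), and Tars1, the threonyl-tRNA synthetase (−0.19 ± 0.15, limma adjusted p = 0.852). On the polysome arrays Mars1 read 10.58, 10.89 and 10.60 log2 in fasted dams, against 10.726, 10.900 and 10.995 in fed dams, whereas on the total arrays it read 10.79, 10.77 and 10.73 in fasted dams, against 10.66, 10.70 and 10.72 in fed dams. Tars1 read 10.32, 10.55 and 10.37 on fasted polysome arrays, against 10.38, 10.74 and 10.73 on fed polysome arrays, and in total RNA 10.49, 10.29 and 10.27 in fasted dams, against 10.32, 10.35 and 10.42 in fed dams. In both genes the polysome groups overlapped. Of the mitochondrial genes, the differences were 0.27 ± 0.14 for Rars2 (limma adjusted p = 0.799) and −0.30 ± 0.19 for Vars2 (limma adjusted p = 0.824). Each group held 3 arrays, and the 30 intervals of this difference reached from −0.70 to 0.72 log2.

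The 7 synthetases with the response element core in their promoters had a median fasting change of −0.02 log2 in total RNA, within −0.13 to 0.07, and the 10 cytosolic genes with a window and no match had a median of −0.01, within −0.17 to 0.23. On polysomes the medians were −0.09 for the 7, within −0.22 to 0.0002, and 0.03 for the 10, within −0.27 to 0.27. None of the 17 was called in either fraction. These are descriptions, and the core was not tested as a source of the values.

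The polysome minus total difference asks which transcripts were over- or under-represented in the ribosome-bearing fraction. In fed dams 7 of the 30 passed the test (23.3%), beside 49.9% of all genes. Among them 2 were higher on polysomes (28% of all genes were) and 5 were lower (21.8% of all genes). In fasted dams 3 of 30 passed (10%), beside 49.7% of all genes; 1 was higher (29.5% of all genes) and 2 were lower (20.2% of all genes). The median size of the difference, without its sign, was 0.154 log2 for the 30 in fed dams and 0.113 in fasted dams, against 0.236 and 0.237 over all genes. Members were not sampled from all genes, so these shares describe the family and carry no test.

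**Figure D2:**
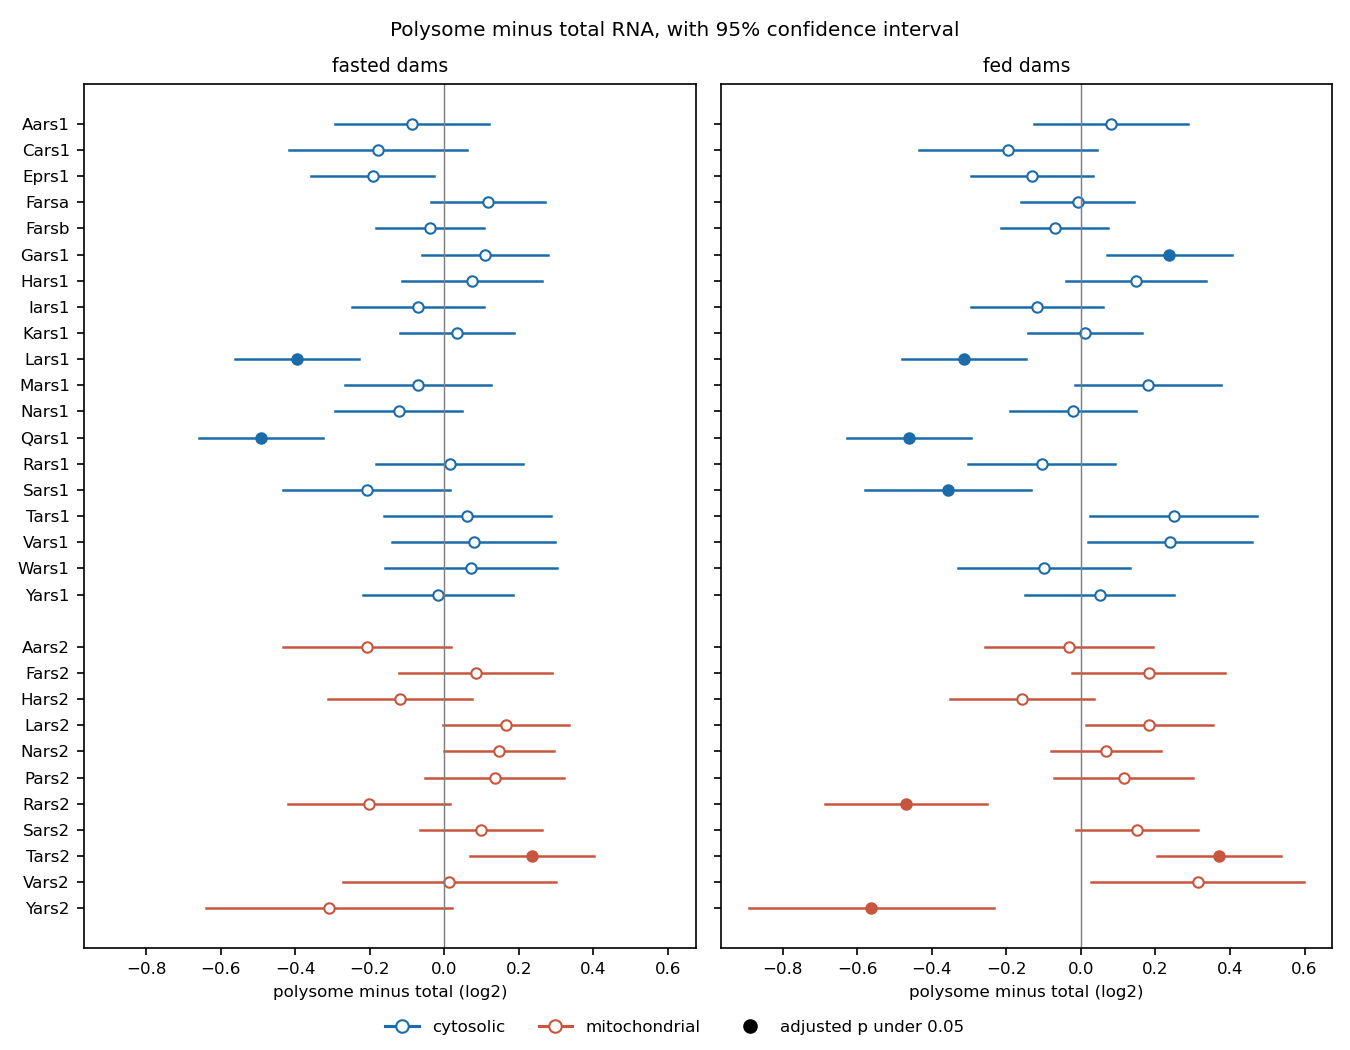
Polysome minus total RNA in log2 for each of the 30 synthetases, in fasted dams (left) and fed dams (right). Points are fitted differences from 3 arrays per group, lines are 95% confidence intervals, and filled points have an adjusted p under 0.05: Qars1, Lars1 and Tars2 in fasted dams, and these with Sars1, Gars1, Rars2 and Yars2 in fed dams.

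Of the 7 enzymes of the multi-synthetase complex, Qars1 and Lars1 were lower on polysomes in both diets, and the other 5, Eprs1, Iars1, Kars1, Mars1 and Rars1, did not pass the test. Qars1 read 10.88, 10.86 and 10.78 log2 on fasted polysome arrays, against 11.33, 11.31 and 11.36 on fasted total arrays. It read 10.79, 10.58 and 10.57 on fed polysome arrays, against 11.03, 11.07 and 11.21 on fed total arrays. Every polysome array lay below every total array. The difference was −0.49 ± 0.077 log2 in fasted dams, 1.41-fold lower (limma adjusted p = 0.000188), and −0.46 ± 0.077 in fed dams, 1.38-fold lower (limma adjusted p = 0.000314; SE, n = 3 each).

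Lars1, the leucyl-tRNA synthetase, known from human cells and yeast also as a leucine sensor for mTORC1, read 10.57, 10.71 and 10.62 log2 on fasted polysome arrays, against 10.98, 11.07 and 11.02 on fasted total arrays. It read 10.49, 10.70 and 10.74 on fed polysome arrays, against 10.93, 10.92 and 11.01 on fed total arrays. Again no polysome array reached a total array of the same diet. The difference was −0.39 ± 0.077 in fasted dams (1.31-fold lower, limma adjusted p = 0.000958) and −0.31 ± 0.077 in fed dams (1.24-fold lower, limma adjusted p = 0.00461). Qars1 and Lars1 passed in both diets whichever of the 12 arrays was left out.

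Among the 12 cytosolic enzymes outside the complex, Sars1 was lower and Gars1 higher on polysomes of fed dams, and 0 of 12 passed in fasted dams. Sars1 read 10.96, 11.11 and 11.23 log2 on fed polysome arrays, against 11.32, 11.48 and 11.57 on fed total arrays. The groups did not overlap, and the difference was −0.36 ± 0.10 (1.28-fold lower, limma adjusted p = 0.0115; 0.0529 without fed total 3). In fasted dams its difference was −0.21 ± 0.10, with a limma adjusted p of 0.111.

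Gars1, the glycyl-tRNA synthetase of both compartments, read 12.20, 12.41 and 12.46 log2 on fed polysome arrays, against 12.11, 12.14 and 12.10 on fed total arrays. All polysome values were higher, by 0.24 ± 0.078 log2 or 1.18-fold (limma adjusted p = 0.0224). The limma adjusted p was 0.0791 without fed polysome 2, 0.087 without fed polysome 3, 0.0593 without fed total 1 and 0.0611 without fed total 3. In fasted dams the difference was 0.11 ± 0.078 (limma adjusted p = 0.263). Kars1, the lysyl-tRNA synthetase and the other gene that serves both compartments, had differences of 0.03 ± 0.071 in fasted and 0.01 ± 0.071 in fed dams.

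Of the 11 mitochondrial enzymes, Tars2, the threonyl-tRNA synthetase, was higher on polysomes in both diets, while Rars2 and Yars2 were lower in fed dams. Tars2 read 9.41, 9.26 and 9.28 log2 on fasted polysome arrays, against 9.11, 9.12 and 9.02 on fasted total arrays. It read 9.29, 9.42 and 9.53 on fed polysome arrays, against 9.096, 9.038 and 8.998 on fed total arrays. The polysome values were the higher ones in each diet, by 0.23 ± 0.077 log2 in fasted dams (1.18-fold, limma adjusted p = 0.0223) and by 0.37 ± 0.077 in fed dams (1.29-fold, limma adjusted p = 0.00149). The fasted value lost its call without fasted polysome 1 (limma adjusted p = 0.0908) and without fasted total 3 (0.0789). The gene for the cytosolic threonyl enzyme, Tars1, had differences of 0.06 ± 0.10 in fasted and 0.25 ± 0.10 in fed dams (limma adjusted p = 0.651 and 0.0618).

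Rars2 read 8.22, 8.34 and 8.19 log2 on fed polysome arrays, against 8.67, 8.92 and 8.57 on fed total arrays. Yars2 read 8.23, 8.74 and 8.90 on fed polysome arrays, against 9.08, 9.26 and 9.21 on fed total arrays. Neither gene's groups overlapped, and the spread of Yars2 over the fed polysome arrays was wide, with an SD of 0.35. The differences were −0.47 ± 0.10 for Rars2 (1.38-fold lower, limma adjusted p = 0.00187) and −0.56 ± 0.15 for Yars2 (1.48-fold lower, limma adjusted p = 0.00806). In fasted dams they were −0.20 ± 0.10 and −0.31 ± 0.15 (limma adjusted p = 0.114 and 0.109). The fasted and the fed difference of a gene were compared directly by the difference between the fasting effects, which was called for none of the 30.

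**Figure D3:**
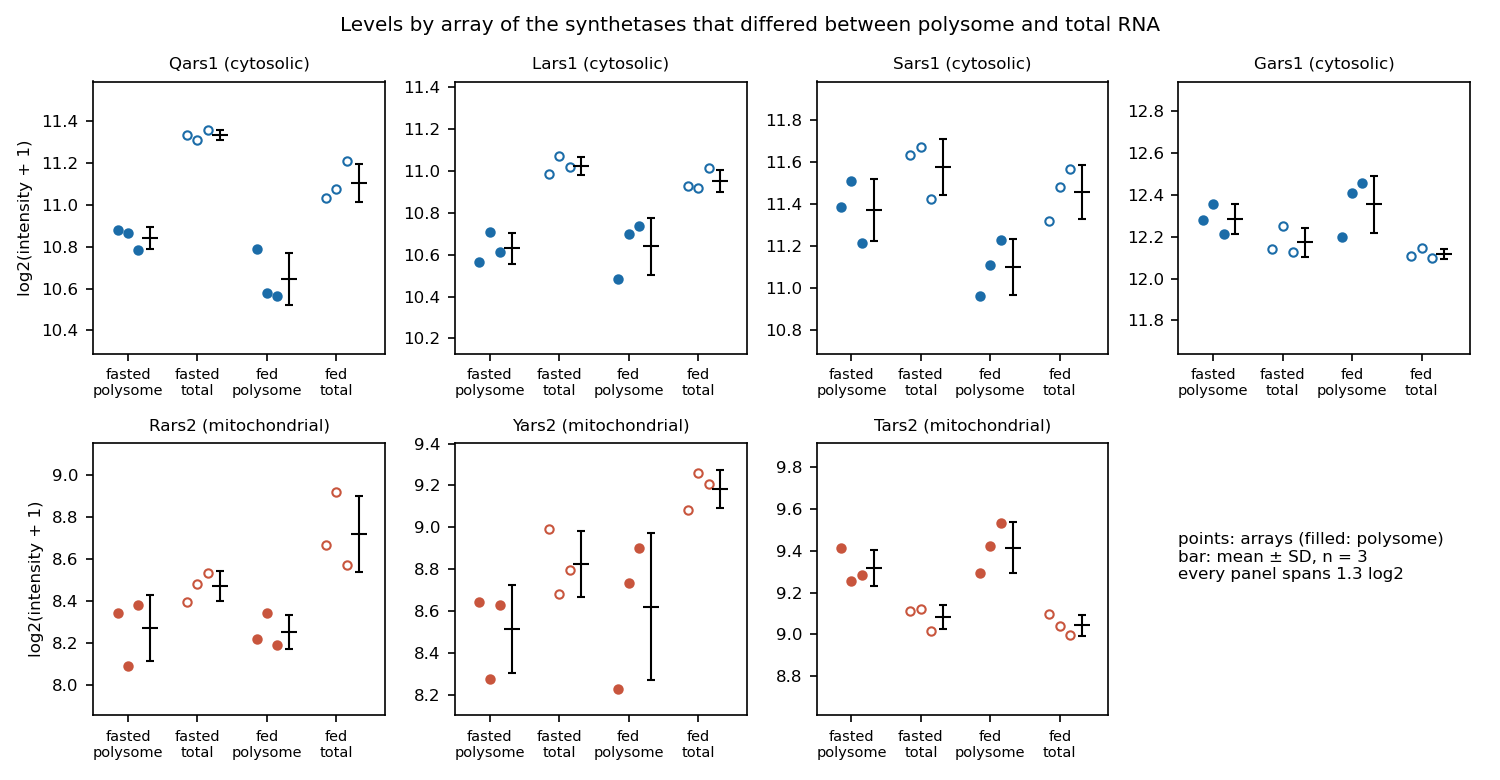
Levels in log2(intensity + 1) on each of the 12 arrays for the 7 synthetases that differed between polysome and total RNA. Filled points are polysome arrays, open points total arrays, bars the mean ± SD of 3 arrays, and every panel spans the same range; in Qars1 all 6 polysome arrays lie below all 6 total arrays, and in Tars2 all 6 lie above.

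Total and polysome arrays with the same number within a diet deviated together (correlations of 0.16 to 0.37 in 6 pairs), so the fit was repeated with the liver as a block. With the liver as a random block, 11 of 30 synthetases passed in fed dams, 6 higher and 5 lower, and with it as a fixed block the count was again 11, beside 56.2% and 54.6% of all genes. The additional calls were Tars1 (limma adjusted p = 0.034 with the random and 0.0439 with the fixed block), Vars1 (0.0255 and 0.0133), Lars2 (0.0336 and 0.0486) and Vars2 (0.0366 and 0.04), all higher on polysomes. In fasted dams 5 passed with the random and 6 with the fixed block, beside 55.9% and 54.6% of all genes. The additional calls there were lower on polysomes: Eprs1, the glutamyl-prolyl-tRNA synthetase (0.0233 and 0.0378), Sars1 (0.0474 and 0.0185) and, with the fixed block only, Yars2 (0.0207).

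The numbers of higher and of lower calls also moved with the scaling of the arrays. With each array centred on its median, 2 synthetases were higher and 2 lower in fasted dams, and 5 and 5 in fed dams, beside 50.6% and 48.9% of all genes called. With quantile normalization, 0 were higher and 5 lower in fasted dams, beside 48.6% of all genes called, and Tars2 had a limma adjusted p of 0.0559 there. Qars1 and Lars1 were lower in both diets under either scaling.

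Set side by side, the mitochondrial enzymes had a median polysome minus total difference of 0.08 log2 in fasted dams and 0.12 in fed dams, and the cytosolic enzymes one of −0.04 and −0.02, against 0.07 and 0.05 over all genes. Between same-numbered arrays the mitochondrial median lay above the cytosolic one in 5 of 6 pairs. The mitochondrial medians of the 6 pairs ran from −0.02 to 0.27, the cytosolic ones from −0.17 to 0.06 and those of all genes from 0.01 to 0.08. The all-gene median also lay above the cytosolic one in every pair but fed 3. It lay above the mitochondrial one in fasted 1 (0.08 against −0.02) and fasted 3 (0.08 against 0.03). The classes differed in level too, with medians of 11.02 log2 for cytosolic and 8.74 for mitochondrial enzymes on fed total 1. By the structure of the catalytic domain, 4 of 14 class I enzymes were lower and 0 higher on polysomes of fed dams, and of 16 class II enzymes 2 were higher and 1 lower; in fasted dams 2 of 14 class I enzymes were lower, and 1 of 16 class II enzymes was higher. Over all genes 29.5% were higher and 20.2% lower in fasted dams, and 28% higher and 21.8% lower in fed dams, so that the 28.6% of class I enzymes called in fed dams, all lower, is near the share of lower genes. These class counts are given without a test. Markers of cell types also differed between the fractions. Endothelial markers summed to 3170 to 3530 on fasted polysome and 5210 to 5340 on fasted total arrays, and to 2950 to 3130 on fed polysome and 4440 to 4780 on fed total arrays. Macrophage markers summed to 3730 to 3850 on fasted polysome and 4800 to 5560 on fasted total arrays, and to 3150 to 3710 on fed polysome and 4460 to 4600 on fed total arrays. Hepatocyte markers summed to 84900 to 85300 on fasted polysome and 90200 to 96300 on fasted total arrays, and to 80400 to 86800 on fed polysome and 91900 to 93600 on fed total arrays. Their part in the synthetase values was not tested.

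Of the 3 scaffold proteins of the complex, 1 was called with fasting in total RNA, Eef1e1, beside 1.62% of all genes. For polysome minus total, 2 of 3 were called in each diet, beside 49.7% of all genes in fasted and 49.9% in fed dams. Eef1e1 (also known as AIMP3 or p18) read 10.51, 10.38 and 10.68 log2 on fasted total arrays, against 10.99, 11.04 and 10.82 on fed total arrays. The groups did not overlap and Eef1e1 fell by 0.43 ± 0.098 log2, at the edge of the threshold (limma adjusted p = 0.0498). It passed in 3 of the 12 fits that left out 1 array, those without fed polysome 1, fasted polysome 2 or fasted total 3. The call held in 7 of its 22 alternatives, over which the limma adjusted p ran from 0.0343 to 0.287. On polysomes it read 11.23, 10.99 and 11.30 in fasted dams, against 11.24, 11.19 and 11.21 in fed dams, a change of −0.04 ± 0.098. Its polysome minus total difference was 0.65 ± 0.098 in fasted dams (limma adjusted p = 0.000138) and 0.26 ± 0.098 in fed dams (limma adjusted p = 0.0402). Compared directly, the difference between its fasting effects was 0.39 ± 0.14 and was not called (limma adjusted p = 0.799).

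Aimp1, which is also released as a secreted cytokine, was lower on polysomes of fed dams by −0.37 ± 0.081 log2 (limma adjusted p = 0.002). In fasted dams its difference was −0.17 log2 and did not pass. Aimp2, the scaffold that binds the lysyl-tRNA synthetase, was higher on polysomes of fasted dams by 0.31 ± 0.080 (limma adjusted p = 0.00636). In fed dams its difference was 0.13 ± 0.080 (limma adjusted p = 0.19). With fasting, neither Aimp1 nor Aimp2 was called in total RNA, where both changed by −0.14 log2 with an SE of 0.081 and 0.080. Tars3, a synthetase outside the 35, was higher on polysomes of fed dams (0.35 ± 0.11, limma adjusted p = 0.0186). In fasted dams its difference was 0.24 ± 0.11 (limma adjusted p = 0.0878). The difference between the fasting effects had a limma adjusted p of 0.813 for Aimp1, 0.826 for Aimp2 and 0.919 for Tars3.

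Of 21 tested genes of tRNA maturation and export, 9 were higher and 2 lower on polysomes in fasted dams (52.4% called), and 10 higher and 2 lower in fed dams (57.1%). The shares called are near the 49.7% and 49.9% of all genes, and 0 of the 21 were called with fasting. Over all genes 29.5% were higher and 20.2% lower in fasted dams, and 28% higher and 21.8% lower in fed dams. The calls of this list thus leaned further toward higher, which was not tested. Rpp21, a protein of RNase P, which trims tRNA precursors, had the largest rise of this list. It read 9.34, 9.04 and 9.27 log2 on fasted polysome arrays, against 7.86, 8.13 and 7.94 on fasted total arrays, a difference of 1.24 ± 0.11 (limma adjusted p = 1.99e-06). Tsen15, of the tRNA splicing endonuclease, was higher by 0.60 ± 0.074 in fasted and 0.69 ± 0.074 in fed dams. Xpot, the tRNA exporter, was higher by 0.36 ± 0.071 and 0.34 ± 0.071, and Hsd17b10, a subunit of mitochondrial RNase P, by 0.58 ± 0.068 and 0.54 ± 0.068 log2. Rpp40 had the largest fall of the list, −0.34 log2 in fasted and −0.68 in fed dams. The other called genes of this list are not named here.

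Of the 6 proofreading and recycling genes tested, 3 were higher and 1 lower in fasted dams, and 2 higher and 1 lower in fed dams, again beside 49.7% and 49.9% of all genes called. The lower one in both diets was Prorsd1, whose product resembles the editing domain of bacterial prolyl-tRNA synthetase. It read 7.12, 7.18 and 7.09 log2 on fasted polysome arrays, against 8.29, 8.34 and 8.27 on fasted total arrays, a difference of −1.17 ± 0.070 (limma adjusted p = 2.94e-07), and its difference in fed dams was −0.99 ± 0.070 (limma adjusted p = 6.76e-07). Of 3 tested genes of the mitochondrial glutamine and initiator tRNA steps, 2 passed in each diet, beside the same shares of all genes. Gatc, of the amidotransferase that makes glutaminyl-tRNA in mitochondria, was higher on polysomes by 0.81 ± 0.10 in fasted and 0.47 ± 0.10 in fed dams. Mtfmt, which formylates the mitochondrial initiator tRNA, was higher by 0.48 ± 0.12 and 0.53 ± 0.12. Qrsl1, the gene not called, had differences of 0.12 ± 0.16 and 0.04 ± 0.16. Of 5 cytosolic elongation factors tested, Eef1d, a subunit of the exchange factor that recycles Eef1a, was higher in both diets (0.47 ± 0.062 in fasted and 0.46 ± 0.062 in fed dams) and Eef1b2, another of its subunits, was lower in fed dams (−0.48 ± 0.096, limma adjusted p = 0.00108). These calls were 20% of the elongation factors in fasted and 40% in fed dams. Of 6 mitochondrial translation factors, 1 passed in each diet (16.7%), Mtrf1l in fasted and Mrrf in fed dams, both higher. Over all genes the shares called were 49.7% in fasted and 49.9% in fed dams.

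**Figure D4:**
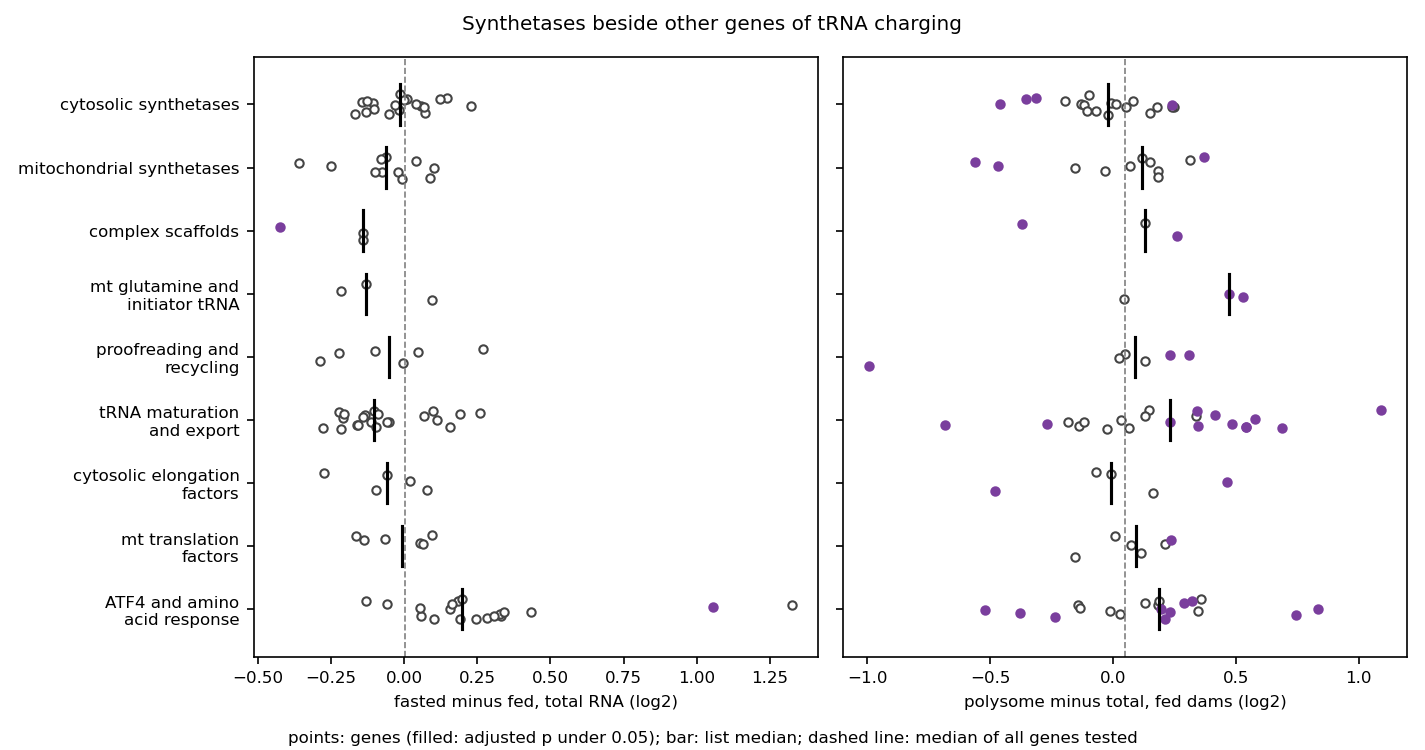
Change with fasting in total RNA (left, fasted minus fed) and polysome minus total difference in fed dams (right), in log2, for the synthetases and for 7 other lists of genes around tRNA charging. Each point is a gene, filled where its adjusted p is under 0.05, bars are list medians and the dashed line is the median of all genes; the amino acid response list has the highest fasting median, 0.20, and its filled point at 1.05 is Trib3.

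The amino acid response genes outside the synthetases were measured beside them. Of 19 tested, 17 changed above 0 with fasting in total RNA, with a median of 0.20 log2. Of these 1 passed (5.26% of the list), Trib3, a pseudokinase that restrains ATF4, beside 1.62% of all genes. At an unadjusted p under 0.05 there were 8 of 19, beside 17.5% of all genes. On polysomes 15 of 19 lay above 0, with a median of 0.16, and 0 passed, beside 3.66% of all genes. There 7 of 19 had an unadjusted p under 0.05, beside 22.9% of all genes. Over all 8698 genes, 4377 lay above 0 in total RNA and 4803 in polysome RNA. For polysome minus total, 4 of the 19 were higher and 3 lower in fasted dams (36.8% called), and 7 higher and 3 lower in fed dams (52.6%). The shares of all genes called were 49.7% and 49.9%.

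Trib3 read 9.07, 8.71 and 7.96 log2 on fasted total arrays, against 7.45, 7.57 and 7.56 on fed total arrays. Every fasted array was higher, with a wide spread (SD 0.56 in fasted and 0.06 in fed dams), and the change was 1.05 ± 0.22 (limma adjusted p = 0.0385). The call was lost without fed polysome 2 (0.0566), any of the 3 fed total arrays (0.0824 to 0.125), fasted total 1 (0.132) or fasted total 2 (0.121), and it held in 13 of 22 alternatives. On polysomes Trib3 read 8.83, 8.67 and 8.36 in fasted dams, against 7.62, 7.87 and 8.16 in fed dams, a change of 0.73 ± 0.22 (limma adjusted p = 0.0788). Asns, asparagine synthetase and a well-known target of ATF4, changed by 0.19 ± 0.069 in total RNA and 0.20 ± 0.069 on polysomes (limma adjusted p = 0.17 and 0.11). Slc7a5, the large neutral amino acid transporter, changed by 0.34 ± 0.080 in total RNA (limma adjusted p = 0.0514). Atf4 itself changed by 0.10 ± 0.11 in total RNA and −0.02 ± 0.11 on polysomes (limma adjusted p = 0.702 and 0.934). Eif2ak4, the gene of Gcn2, changed by −0.13 ± 0.081 and −0.25 ± 0.081 (limma adjusted p = 0.437 and 0.0911). Of the 7 synthetases with the core, none had a change in total RNA above 0.07 log2. Upper limits of their confidence intervals were 0.27 for Mars1, 0.22 for Cars1, 0.21 for Nars1 and Tars1, and 0.20 for Yars1. Those of Aars1 and Iars1 were 0.15 and 0.05. The Asns change of 0.19 thus lay within the intervals of Mars1, Cars1, Nars1, Tars1 and Yars1, and above those of Aars1 and Iars1. Whether the 7 changed less than the other response genes was not tested.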

How the data were processed

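Per the labels' protocols, RNA was amplified and biotin-labelled, and per the submitters' processing notes the authors processed the arrays with RMA (version not given in the sources used here). Deposited intensity values ran from 3.62 to 21344, a linear scale, and log2(intensity + 1) was analysed. Of 28826 probes, 15209 had 1 gene symbol, 306 several and 13311 were not listed; 15178 were matched to current symbols by Entrez identifier. Of 494 genes with several probes the brightest was used. Genes above the 40th percentile of mean level over named genes (6.87 log2) were kept, and 5799 were left out.

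Group means were fitted to 12 arrays with limma 3.58.1 in R 4.3.3 (8 residual and 5.17 prior degrees of freedom), with two-sided p-values adjusted by Benjamini-Hochberg over 8698 genes. The fit was tested on simulated data. Replicates are biological per the labels, with 3 per group limiting precision. The pairing comes from replicate numbers in the labels, whose meaning is not stated: deviations from group means of same-numbered total and polysome arrays of a diet correlated at 0.16 to 0.37 in all 6 pairs, and the numbers were taken to pair them. Same-numbered fed and fasted arrays correlated at −0.15 to 0.35 and were not paired.

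The members, gene lists and motifs were chosen with earlier results of these data known. Values per array are given for members past the threshold in any comparison and for the 2 of each class with the smallest p in either fasting comparison or in the difference. Pathway genes are given by counts, and only some of the called ones are named. Alternatives were no filter, median centring, quantile normalization, only the arrays compared, averaged probes, robust priors with a trend, liver blocks, no added 1 and leaving out each array; a filter level over all probes and leaving out fed total 1 and 3 together were chosen after seeing the data. Promoter windows came from RefSeq (GRCr8) and were matched by symbol. Figures used Python 3.11.15 with pandas 2.3.3 and matplotlib 3.10.9.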

Additional observations from a re-analysis of the deposited data

How the results depend on the processing

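All 216 medians of the cytosolic and mitochondrial changes kept their direction or stayed within the spread between arrays under the alternatives, and of the 216 counts of called members, 202 stayed within 1.5 times the count reported. With the liver as a replicate block, random or fixed, 5 mitochondrial members were called for polysome minus total in fed dams (3 reported) and 4 cytosolic members in fasted dams (2 reported). In fasted dams 2 mitochondrial members were called with median centring, with quantile normalization, with only the arrays compared and with the fixed block (1 reported). The random block changed no member's call for fasting, for which the fixed block was not run, and neither block changed one for the difference between the effects. Leaving out 1 array gave 0 to 2 cytosolic calls for fasting in polysome RNA (0 reported), 2 to 8 cytosolic calls for polysome minus total in fed dams (4 reported), and 0 to 2 mitochondrial calls in fasted dams (1 reported). On the gene's strand alone the response element core was in 2 cytosolic genes (7 on either strand). Over all genes, fasting called 57 in total and 93 in polysome RNA with no filter, and 61 and 40 with only the arrays compared, against 141 and 318 reported; the filter over all probes left 205 in polysome RNA. Without 1 array these counts ran from 18 to 206 and from 10 to 858. The 10 member differences reported as called kept their call in 212 of 220 repeats and lost it in 8 (Gars1, Sars1 and Tars2), with 0 reversed. The causes of these shifts were not tested, and 3 arrays a group limit all of them.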
